A study of Mus musculus with 9 samples.

Results

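The genes described here are 9 components of the transforming growth factor beta (TGF-beta) pathway in mouse liver. They were taken by symbol from the 21873 genes of the mRNA table, and all 9 were present and passed the filter on low values. They comprise the 3 ligands (Tgfb1, Tgfb2 and Tgfb3), 2 latent TGF-beta binding proteins (Ltbp1 and Ltbp2), both signalling receptors (Tgfbr1 and Tgfbr2) and 2 inhibitors of the signal (Smad7 and Bambi). Liver RNA was sequenced from 9 male C57BL/6 mice that were 8 weeks old when treatment began, with 3 mice in each of 3 groups. The control group received intraperitoneal normal saline for 8 weeks. The TAA group received intraperitoneal thioacetamide, a hepatotoxin that causes liver fibrosis, for 8 weeks. The recovery group received the same 8 weeks of TAA and then had 8 weeks of spontaneous recovery. Control and TAA livers were collected within days of the final injection, so the recovery mice were 8 weeks older at collection than the mice they are compared with, and age and recovery cannot be told apart here. The question was how far the RNA of this pathway moved with fibrosis and how far it had returned after recovery. The paper reports that fibrosis score and hepatic hydroxyproline were in part reduced in recovery mice relative to TAA mice.

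TGF-beta is secreted as a latent complex, in which the mature cytokine is held by its own propeptide and tethered to the extracellular matrix by a latent TGF-beta binding protein. Once released, it binds the type II receptor, which recruits and phosphorylates the type I receptor, and the type I receptor activates Smad2 and Smad3. In the liver this signal is known for driving hepatic stellate cells to become collagen-producing myofibroblasts, and Smad7 and Bambi are feedback inhibitors that the same signal induces or that dampen it at the receptor.

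Values are FPKM (fragments per kilobase of transcript per M mapped fragments) divided by 1 scaling factor per library, called scaled FPKM below, and can be compared between genes because they are per length. Fold changes are differences of log2(scaled FPKM + 0.1), which understates the change of genes with low FPKM. Genes with an FDR < 0.05 in limma and a fold change of at least 2 are called differentially expressed genes (DEGs). Depth was estimated from how the lowest FPKM values step, and was 27.1 to 40.9 M fragments per library. At that depth the members rested on an estimated 20 (Tgfb2 and Ltbp2, control group) to 6746 (Tgfbr2, TAA group) fragments per library, and the control values of Tgfb2, Tgfb3 and Ltbp2 each rested on 20 to 50 of them.

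The libraries carried the markers of liver, since the 10 hepatocyte markers summed to between 23261 and 54271 scaled FPKM. The 10 myofibroblast markers summed to 16.5 to 22.4 in control livers, 216 to 324 in TAA livers and 18.6 to 33.0 in recovery livers. The 10 cholangiocyte markers summed to 19.1 to 25.9, 319 to 473 and 34.1 to 45.9 in the same order. Several libraries stood apart from their group in the markers of other cells. Skeletal muscle markers summed to 44.2 in TAA mouse 3 and to at most 0.505 elsewhere. Adrenal cortex markers summed to 7.60 in recovery mouse 3 and to at most 0.756 in the other recovery mice, with 5.14 to 8.26 in the TAA mice. In control mouse 1 the markers of monocyte-derived macrophages summed to 49.6, against 14.1 and 15.3 in the other control mice. Not all of these markers stood apart. Cd9 measured 8.67 in that mouse, against 8.74 and 8.38, and Ccr2 measured 0.640, against 0.432 and 0.555. The adipocyte list summed to 536 in control mouse 1, against 176 and 237, but Car3 alone measured 508, against 150 and 218. The summed markers of Kupffer cells (48.3 against 125 and 130), sinusoidal endothelium (93.3 against 145 and 160) and neutrophils (0.800 against 3.96 and 4.19) were low in control mouse 1. In the Kupffer list Cd5l measured 13.6 in that mouse, against 50.5 and 51.2, and Cd163 measured 2.67, against 7.85 and 8.49. Adgre1 of the same list was not low, at 7.41 against 6.47 and 6.54. This mouse had the lowest level in its group of 6 of the 9 members and the highest of the other 3 (Tgfb2, Tgfb3 and Ltbp2). Its estimated depth was the lowest of all libraries, at 27.1 M fragments. Erythroid markers summed to 264 in TAA mouse 2, against 639 and 646 in the other TAA mice, and lymphocyte markers to 2.77 in recovery mouse 1, against 5.98 and 6.38. The part of these in the results below was not tested. Each mouse was also left out in turn. Between TAA and control livers 6 members were then called in each case but 1 (5 without control mouse 1). Over all tested genes 3412 to 3579 were called there. Between recovery and TAA livers 5 members were called in each case, beside 2910 to 3135 of all tested genes.

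For 6 members the RefSeq tables (build GRCm38.p6) gave a promoter window of the 250 bases before the annotated start, and the 3 with the largest fold changes in the TAA group among them are shown. The lines run 5′ to 3′ on the strand of the gene, and capitals mark CAGAC, the core of the Smad-binding element, or its reverse complement GTCTG. Tgfbr1 is shown as the 1 member that did not pass the FDR in any comparison, and its window holds no match. The windows lie at chr1:186705990-186706239 on the minus strand (Tgfb2), chr12:84876492-84876741 on the minus strand (Ltbp2), chr17:75005279-75005528 on the plus strand (Ltbp1) and chr4:47352972-47353221 on the plus strand (Tgfbr1).
Tgfb2: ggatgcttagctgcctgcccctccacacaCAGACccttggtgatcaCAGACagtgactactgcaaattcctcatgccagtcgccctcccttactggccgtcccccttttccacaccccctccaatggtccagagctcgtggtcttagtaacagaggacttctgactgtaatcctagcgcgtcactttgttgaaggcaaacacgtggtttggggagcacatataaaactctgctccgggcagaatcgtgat
Ltbp2: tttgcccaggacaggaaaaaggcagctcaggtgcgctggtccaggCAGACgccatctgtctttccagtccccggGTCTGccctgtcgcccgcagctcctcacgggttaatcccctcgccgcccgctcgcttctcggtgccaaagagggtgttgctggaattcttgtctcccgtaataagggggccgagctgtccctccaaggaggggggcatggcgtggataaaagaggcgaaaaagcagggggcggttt
Ltbp1: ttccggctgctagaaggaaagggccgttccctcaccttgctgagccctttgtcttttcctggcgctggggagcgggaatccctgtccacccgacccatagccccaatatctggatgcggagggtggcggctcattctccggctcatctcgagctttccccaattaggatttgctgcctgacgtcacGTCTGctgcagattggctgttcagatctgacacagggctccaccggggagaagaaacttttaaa
Tgfbr1: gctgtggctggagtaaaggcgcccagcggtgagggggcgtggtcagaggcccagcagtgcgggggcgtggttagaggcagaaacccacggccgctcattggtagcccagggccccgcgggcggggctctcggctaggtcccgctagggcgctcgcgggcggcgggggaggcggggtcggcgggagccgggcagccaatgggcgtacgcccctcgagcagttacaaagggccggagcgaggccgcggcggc

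CAGAC occurred on either strand in 42.2% of all 32851 promoter windows of this length. Tgfb2 held 2 matches, 221 and 204 bases before the start, and Ltbp2 held 2, at 205 and 176. Ltbp1 held 1 at 64 bases, and Tgfbr2, whose window is not printed, held 1 at 160. Tgfb1 and Tgfbr1 held none. Tgfbr1 and Ltbp1 each had 2 windows, and only the window nearest the annotated start of the gene was searched. The palindromic element GTCTAGAC, present in 0.167% of windows, and the AP-1 site TGANTCA, present in 6.75%, matched in none of the 6. The GC box GGGCGG, present in 32.7% of windows, matched 5 times in Tgfb1 and 2 times each in Tgfbr1 and Ltbp2. Tgfb2 had a TATA box (TATAAA, in 12.4% of windows) 31 bases before its start. The windows of Tgfb1 and Tgfbr1 had a GC content of 75.2% and 74.8%, the other 4 had 53.6% to 61.6%, and the median over all windows was 52.4%. All motifs were searched on both strands, no match of one overlapped a match of another, and a match is a run of letters only.

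In the TAA group, 6 of the 9 members were DEGs and higher than in the control group, and none was lower. Over all 14094 tested genes, 17% were higher DEGs, 8.02% were lower DEGs, and 25% were DEGs in either direction. With the FDR alone, 8 members were higher, against 28.2% of genes. All TAA mice lay above all control mice for 8 members, against 32.6% of genes. The median log2 fold change of the 9 members was 1.40, beside 0.02 over all tested genes. Scaling lowered the log2 fold changes of this comparison, for the 9 members by 0.54 to 0.63. Without it 8 members were DEGs, beside 4803 of all 14094 tested genes in either direction. With 1 in place of 0.1 added to the FPKM 4 members were, beside 1780 of all tested genes. By limma's test against a 2-fold change (treat) also 4 members were, beside 1441 of all tested genes. The plot of levels by mouse shows every value.

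**Figure D1:**
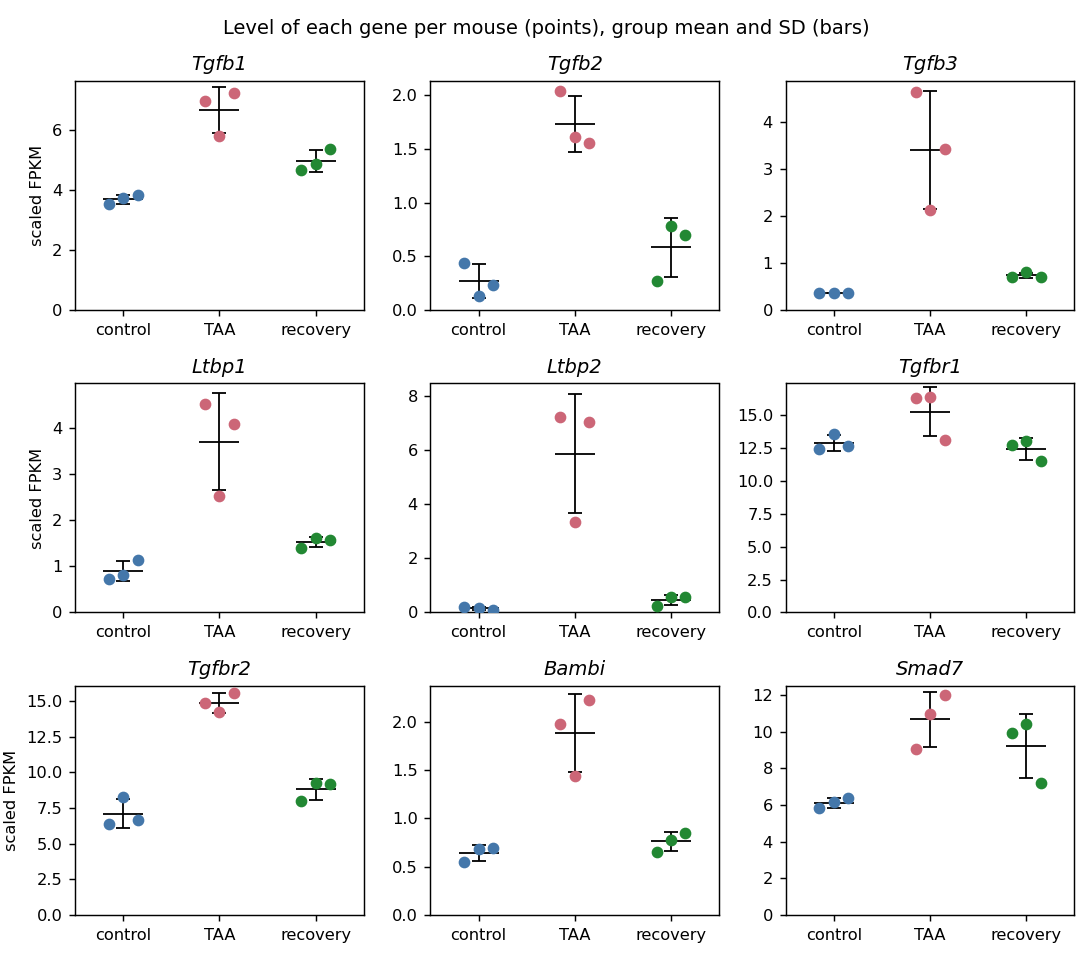
Scaled FPKM (vertical axes, linear and starting at 0) of the 9 genes in each mouse of the control, TAA and recovery groups; points are mice, long bars the mean and short bars the SD (n = 3). Ltbp2 lies at 0.103 to 0.188 in the control mice and at 3.33 to 7.23 in the TAA mice, while the TAA and control points of Tgfbr1 overlap.

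Among the ligands, Tgfb1 (ENSMUSG00000002603, mm10, chr7:25687002-25705077, plus strand) encodes the best-known profibrotic isoform. It measured 3.52, 3.72 and 3.82 scaled FPKM in control mice 1 to 3, then 6.97, 5.78 and 7.22 in TAA mice 1 to 3. All TAA mice were above all control mice, but the log2 fold change of 0.83 (SE 0.12, adjusted p = 0.000878 by limma with Benjamini-Hochberg adjustment) is under the 2-fold limit, so Tgfb1 was not a DEG. Without scaling it reached 1.46 and was one. Tgfb2 (ENSMUSG00000039239, chr1:186622792-186705989, minus strand) measured 0.440, 0.131 and 0.234 in the control mice and 2.04, 1.62 and 1.56 in the TAA mice. Its control values were spread more widely than those of any other member, with a coefficient of variation of 58.6%, and still lay below every TAA value. It rose by a log2 fold change of 2.39 (SE 0.31, adjusted p = 0.000544, limma). Tgfb3 (ENSMUSG00000021253, chr12:86056745-86079041, minus strand) measured 0.361, 0.357 and 0.354 in the control mice and 4.66, 2.14 and 3.43 in the TAA mice. It rose by 2.87 (SE 0.27, adjusted p = 0.000109, limma), a larger log2 fold change than that of 97.8% of tested genes. In whole liver RNA, more cells of a type and more RNA per cell cannot be told apart, here and in all comparisons below.

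The composition of the ligand RNA differed as well, and such shares within a library do not depend on the scaling factor. Tgfb1 made up 85.5% ± 3.63 (SD, n = 3) of the summed ligand FPKM in control mice and 56.9% ± 5.19 in TAA mice. The share of Tgfb3 was 8.29% ± 0.237 in control mice and 28.2% ± 5.82 in TAA mice, with 34.1%, 22.4% and 28.1% in TAA mice 1 to 3. The share of Tgfb2 was 6.21% ± 3.62 and 14.9% ± 2.10. The groups did not overlap for any of the 3 shares, and each gave p = 0.1 in a two-sided exact permutation test (adjusted p = 0.15 over 21 ratio tests), the smallest value that 3 mice against 3 allow. Tgfb1 remained the ligand with the highest FPKM in all 9 libraries.

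**Figure D2:**
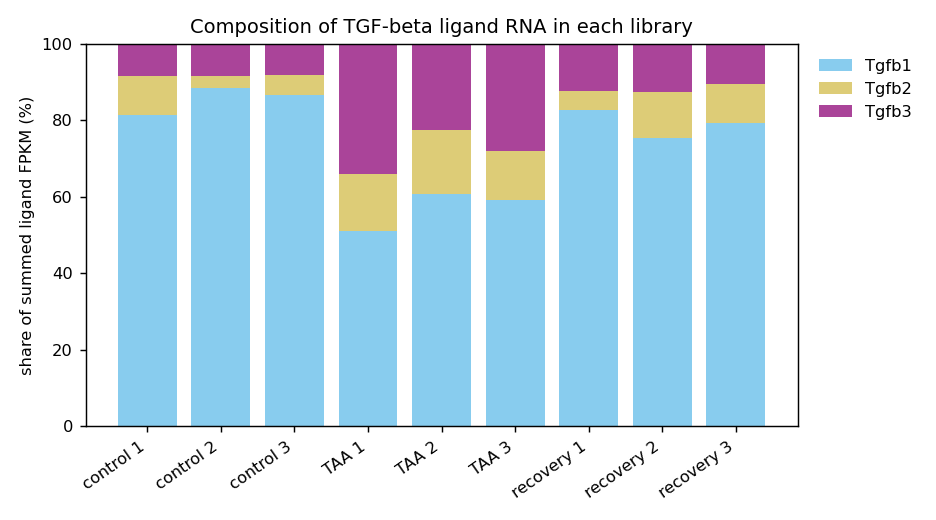
Share of the summed FPKM of Tgfb1, Tgfb2 and Tgfb3 (vertical axis, percent) taken by each ligand in each library. The Tgfb1 part is 81.4% to 88.4% in control mice, 51.0% to 60.6% in TAA mice and 75.3% to 82.8% in recovery mice.

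Ltbp2 had the largest change of the 9 genes. Ltbp2 (ENSMUSG00000002020, chr12:84783212-84876532, minus strand) encodes a matrix protein of elastic fibres that, unlike its relatives, does not bind latent TGF-beta. It measured 0.188, 0.157 and 0.103 scaled FPKM in the control mice and 7.23, 3.33 and 7.02 in the TAA mice. Even the lowest TAA value was far above the highest control value. The log2 fold change was 4.51 (SE 0.32, adjusted p = 3.2e-05, limma), the 79th largest in size of all 14094 tested genes. Ltbp1 (ENSMUSG00000001870, chr17:75005568-75392512, plus strand), which tethers latent TGF-beta to the matrix, measured 0.727, 0.812 and 1.14 in the control mice and 4.51, 2.51 and 4.08 in the TAA mice. It rose by 1.92 (SE 0.26, adjusted p = 0.000607, limma), again without overlap. The log2 ratio of Ltbp2 to Ltbp1 was -2.60 ± 0.79 (SD, n = 3) in control mice and 0.62 ± 0.19 in TAA mice, so Ltbp2 went from the lower to the higher of the pair (exact permutation p = 0.1, the smallest possible).

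The receptors differed from each other. Tgfbr2 (ENSMUSG00000032440, chr9:116084293-116175360, minus strand), the type II receptor that binds the ligand, measured 6.36, 8.25 and 6.67 scaled FPKM in the control mice and 14.8, 14.2 and 15.6 in the TAA mice. It rose by a log2 fold change of 1.07 (SE 0.12, adjusted p = 0.000249, limma), just past the 2-fold limit, and without control mouse 1 it was 0.99, just under it. Tgfbr1 (ENSMUSG00000007613, chr4:47353222-47414931, plus strand), the type I receptor kinase, measured 12.4, 13.5 and 12.6 in the control mice and 16.3, 16.4 and 13.1 in the TAA mice. TAA mouse 3 lay within the control range, and the log2 fold change was 0.24 (95% interval -0.02 to 0.50, adjusted p = 0.106, limma). The difference between the receptors was itself measured within each library. The log2 ratio of Tgfbr2 to Tgfbr1 was -0.87 ± 0.13 in control mice and -0.03 ± 0.24 in TAA mice, without overlap (n = 3 per group, exact permutation p = 0.1, the smallest possible).

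Of the inhibitors, Bambi (ENSMUSG00000024232, chr18:3507923-3516404, plus strand) encodes a decoy receptor without a kinase domain. It measured 0.547, 0.680 and 0.697 scaled FPKM in the control mice and 1.97, 1.44 and 2.23 in the TAA mice, and it rose by 1.40 (SE 0.20, adjusted p = 0.000866, limma). With quantile normalization this was 0.83, under the limit. Smad7 (ENSMUSG00000025880, chr18:75367529-75395935, plus strand), the inhibitory Smad that blocks the type I receptor, measured 5.81, 6.16 and 6.38 in the control mice and 9.04, 10.99 and 12.0 in the TAA mice. The groups did not overlap, yet the log2 fold change of 0.79 (SE 0.12, adjusted p = 0.00136, limma) is under the 2-fold limit, and without scaling it was 1.42. Smad7 and Tgfb1 kept nearly the same ratio in the control mice, with a log2 ratio of 0.73 ± 0.01 (SD, n = 3). In the TAA mice that log2 ratio was 0.68 ± 0.28, and the groups overlapped (exact permutation p = 0.9).

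Within the TAA group, TAA mouse 2 had the lowest level of 6 of the 9 members (Tgfb1, Tgfb3, Tgfbr2, Ltbp1, Ltbp2 and Bambi). The summed myofibroblast markers were also lowest in that mouse, at 216 against 311 and 324, as were the erythroid markers, and their part in the members' levels was not tested. Of the 10 myofibroblast markers, 9 were higher DEGs in the TAA group, and their median log2 fold change was 2.33. Of 10 markers of quiescent stellate cells, 5 were higher and 1 was lower, with a median of 1.08. Over all tested genes 17% were higher and 8.02% lower DEGs.

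The order of the levels differed between the groups. In the control group it ran from Tgfbr1 (mean 12.9 scaled FPKM) through Tgfbr2, Smad7, Tgfb1, Ltbp1, Bambi, Tgfb3 and Tgfb2 to Ltbp2 (0.149). In that order Tgfbr2 overlapped Smad7, Tgfb3 overlapped Tgfb2, and Tgfb2 overlapped Ltbp2, while the other neighbours were separate. In the TAA group, Tgfbr1 (15.3) and Tgfbr2 (14.9) overlapped at the top, and Smad7 (10.7) was separate from its neighbours. The order below it was Tgfb1 (6.66), Ltbp2 (5.86), Ltbp1, Tgfb3, Bambi and Tgfb2 (1.74), and each of these overlapped the next. In the recovery group Tgfbr1 (12.4) was again highest and separate, Smad7 (9.21) overlapped Tgfbr2 (8.81), and Tgfb1 (4.96) and Ltbp1 (1.52) were each separate. Bambi, Tgfb3, Tgfb2 and Ltbp2 (0.467) followed, each overlapping the next.

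In the recovery group, 5 of the 9 members were DEGs and lower than in the TAA group, and none was higher. Over all tested genes, 14.3% were lower DEGs, 7.12% were higher DEGs, and 21.4% were DEGs in either direction. With the FDR alone, 7 members were lower, against 26% of genes. All recovery mice lay below all TAA mice for 8 members, against 31% of genes. The median log2 fold change of the members was -1.19, beside -0.01 over all tested genes. Only Tgfb3 and Ltbp2 were DEGs with 1 added to the FPKM and by treat, beside 1460 and 1084 of all 14094 tested genes in either direction. As TPM 8 members were DEGs, beside 5159 of all tested genes. This comparison shares its TAA libraries with the preceding one, so a low or high TAA value enters both, and each comparison is given by its own values. The plot of fold changes sets them side by side.

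**Figure D3:**
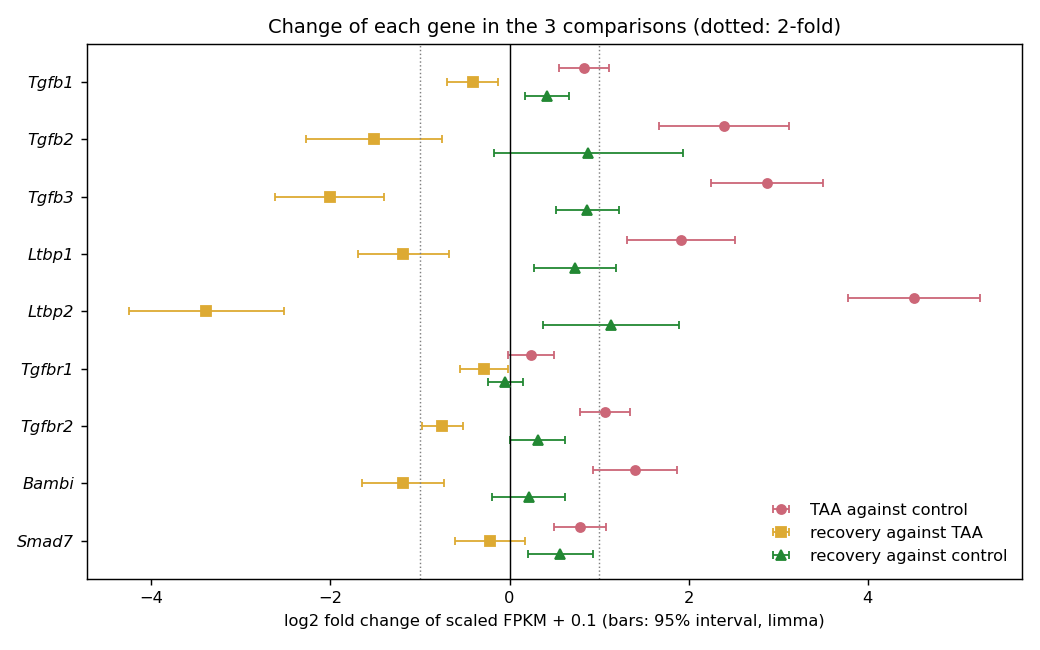
Log2 fold change of scaled FPKM + 0.1 (horizontal axis) for each gene in the 3 comparisons, with 95% intervals from limma (n = 3 per group) and dotted lines at a 2-fold change. Ltbp2 lies at 4.51 in TAA versus control mice and at -3.38 in recovery versus TAA mice, and all 3 intervals of Tgfbr1 lie within the dotted lines.

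The ligands fell unequally. Tgfb3 measured 0.701, 0.804 and 0.703 scaled FPKM in recovery mice 1 to 3 and fell by 2.005 on the log2 scale (SE 0.26, adjusted p = 0.000551, limma). Tgfb2 measured 0.270, 0.781 and 0.699 and fell by 1.51 (SE 0.33, adjusted p = 0.00625, limma). Recovery mouse 1 was within the control range of Tgfb2 and the other 2 were above it. Tgfb1 measured 4.67, 4.85 and 5.37, all below the TAA mice and all above the control mice, and the log2 fold change against the TAA group was -0.41 (SE 0.12, adjusted p = 0.024, limma), under the 2-fold limit, and as TPM it was a DEG (-1.17). The share of Tgfb1 in the ligand FPKM was 79.1% ± 3.72 (SD, n = 3) and that of Tgfb3 was 11.8% ± 1.21, and neither overlapped the TAA group (exact permutation p = 0.1, the smallest possible).

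The binding proteins and Bambi fell too. Ltbp2 measured 0.242, 0.586 and 0.573 scaled FPKM in the recovery mice and fell by 3.38 on the log2 scale (SE 0.37, adjusted p = 0.00024, limma). Ltbp1 measured 1.40, 1.61 and 1.56 and fell by 1.19 (SE 0.22, adjusted p = 0.00286, limma). For both genes every recovery mouse was below every TAA mouse and above every control mouse. Bambi measured 0.654, 0.780 and 0.847 and fell by 1.19 (SE 0.20, adjusted p = 0.0018, limma), and recovery mouse 1 lay within its control range. With quantile normalization Bambi was at -0.76 and was not a DEG.

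The receptors and Smad7 were not DEGs in this comparison. Tgfbr2 measured 7.96, 9.29 and 9.17 scaled FPKM in the recovery mice, all below the TAA mice. Its log2 fold change of -0.75 (SE 0.10, adjusted p = 0.000558, limma) is under the 2-fold limit, and it was a DEG without scaling (-1.31) and as TPM (-1.51). Tgfbr1 measured 12.7, 13.04 and 11.5, with a log2 fold change of -0.29 (95% interval -0.56 to -0.02, adjusted p = 0.0698, limma), and was a DEG as TPM (-1.05). Smad7 differed from the other inhibitor. Recovery mice 1 and 2 measured 9.95 and 10.4 scaled FPKM of Smad7, within the TAA range, and recovery mouse 3 measured 7.22, between the TAA and control ranges. The log2 fold change of Smad7 against the TAA group was -0.22 (95% interval -0.61 to 0.17, adjusted p = 0.309, limma). The overlap depends on the scaling. As deposited, the FPKM of Smad7 was 8.95, 9.33 and 6.55 in recovery mice 1 to 3, below the 11.6, 14.5 and 16.5 of TAA mice 1 to 3. Its log2 fold change was -0.78 without scaling and -0.98 as TPM, both under the 2-fold limit.

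Against the control group, no member was a DEG in the recovery group, where 0.993% of all tested genes were DEGs in limma. By limma, 1 member was higher with an FDR < 0.05, against 1.33% of genes, and 6 members had an unadjusted p below 0.05, against 23% of genes. By treat 0 of all tested genes were DEGs in this comparison, so that no member passed it says nothing particular to the members. The 1 member with an FDR < 0.05 was Tgfb3, whose recovery mice were all above its control mice (log2 fold change 0.87, SE 0.15, adjusted p = 0.0396, limma). With 0.01 in place of 0.1 added to the FPKM, Tgfb3 reached a log2 fold change of 1.02 and was called, beside 132 of all tested genes. When each mouse was left out in turn, the log2 fold change of Tgfb3 was 0.81 to 0.90. Its adjusted p was then 0.070 to 0.141 (limma), so Tgfb3 missed the FDR threshold in each case. All recovery mice lay above all control mice for 5 members (Tgfb1, Tgfb3, Ltbp1, Ltbp2 and Smad7), against 14.6% of genes. The median log2 fold change of the members was 0.57, beside 0.01 over all tested genes.

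The intervals leave room for differences in either size or direction for some members. Ltbp2 had a log2 fold change of 1.13 against the control group (95% interval 0.37 to 1.89, adjusted p = 0.109, limma). For Tgfb2 it was 0.88 (95% interval -0.17 to 1.93, adjusted p = 0.288, limma). Ltbp1 stood at 0.73 (95% interval 0.27 to 1.19, adjusted p = 0.096, limma) and Smad7 at 0.57 (95% interval 0.20 to 0.93, adjusted p = 0.0979, limma). All 4 missed the FDR threshold, and 3 of the 4 intervals lie above 0. Tgfb1 stood at 0.42 (95% interval 0.17 to 0.66, adjusted p = 0.0814, limma) and Tgfbr2 at 0.31 (95% interval 0.01 to 0.62, adjusted p = 0.204, limma). Bambi was at 0.21 (95% interval -0.20 to 0.62, adjusted p = 0.496, limma). Tgfbr1 was closest to its control level, at -0.05 (95% interval -0.24 to 0.15, adjusted p = 0.758, limma). The log2 ratio of Tgfbr2 to Tgfbr1, -0.50 ± 0.17 (SD, n = 3), was still above the control group in every recovery mouse (exact permutation p = 0.1, the smallest possible).

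The part of the TAA change that was left after recovery was expressed as a percentage, where 0 is the control mean and 100 the TAA mean on the log2 scale. It was 15.3% for Bambi, 25.1% for Ltbp2, 29.4% for Tgfbr2, 30.2% for Tgfb3, 36.8% for Tgfb2 and 38.0% for Ltbp1. These 6 genes are the higher DEGs of the TAA group. For Bambi the value was 9.12% without control mouse 1 and 10.1% without recovery mouse 3. Over all 2389 higher DEGs the median was 17.2%, with quartiles of 4.17% and 30.3%. Of the members that were not DEGs, Tgfb1 had 50.3% left and Smad7 had 72.0%, with SDs over the recovery mice of 12.4 and 36.4 percentage points. For Smad7 the 3 recovery mice had 88.5%, 97.3% and 30.3% left. Without scaling between libraries the values were 33.7% for Tgfb1 and 45.2% for Smad7, and as TPM 29.0% and 39.0%. No value is given for Tgfbr1, whose TAA change was not past the FDR.

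**Figure D4:**
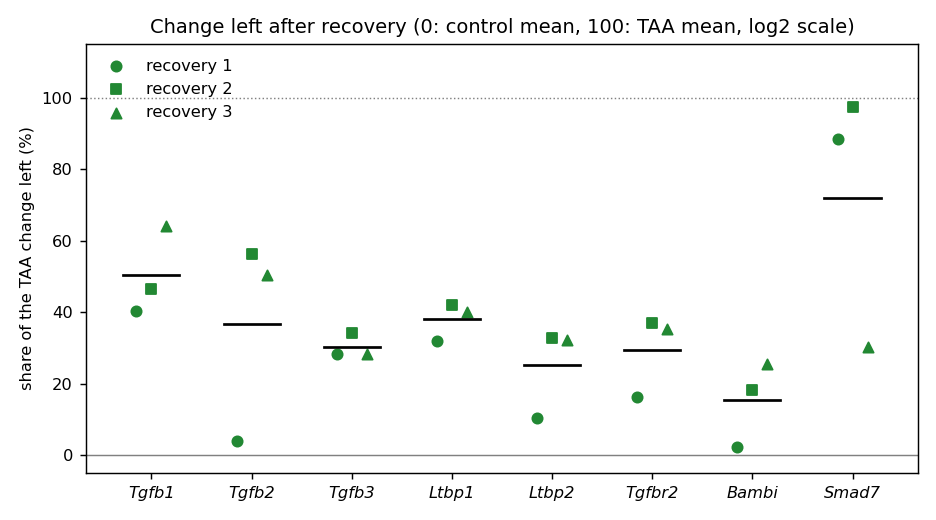
Percentage of the TAA change left (vertical axis) in each of the 3 recovery mice for 8 genes; symbols are mice and bars the value of the group mean. Smad7 has mice at 30.3% to 97.3%, Tgfb3 lies between 28.2% and 34.2%, and recovery mouse 1 is the lowest for Tgfb2 at 3.90%.

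Recovery mouse 1 had the lowest level of 7 of the 9 members and recovery mouse 2 the highest of 7. The summed myofibroblast markers were 18.6 in recovery mouse 1, 25.2 in mouse 2 and 33.0 in mouse 3. In the recovery group 9 of these 10 markers were lower DEGs against the TAA group, where 14.3% of all tested genes were. None was a DEG against the control group, where 0.993% of all tested genes were DEGs. There 4 of the 10 had an unadjusted p below 0.05 in limma, all of them higher, against 23% of genes in either direction. The median log2 fold change of the 10 against the control group was 0.59. The part of these markers in the members' levels was not tested.

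The genes whose pattern over the 9 libraries was most like a member were found among 11100 genes by the root mean square difference of log2 level, each gene centred on its mean over the 9 libraries. For Ltbp2 the nearest was Col1a2, a chain of type I collagen, at 0.241, followed by Eln, which encodes elastin, at 0.296, and Gipc2 at 0.309, where the median over all genes was 2.02. Col1a2 averaged 2.24 scaled FPKM in the control group, 55.9 in TAA mice and 4.24 in recovery mice. For Tgfb3 the nearest was Adamts5, a protease of proteoglycans, at 0.214, followed by Cpxm1 and Spint1. The nearest to Tgfb2 was Pak1, a kinase of the cytoskeleton, at 0.272, and the histone genes Hist1h2bb and Hist1h2bf came next. Lhfp was nearest to Ltbp1 at 0.135, followed by Relb and Wtip. Cnn2, an actin-binding calponin, was nearest to Bambi at 0.091, followed by Pam and Abr. These distances describe 9 libraries from 3 groups and carry no test.

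The rest of the pathway was counted in 7 lists that exclude the 9 members. Their counts stand beside shares over all tested genes of 17% higher and 8.02% lower DEGs in TAA versus control mice, and 7.12% higher and 14.3% lower in recovery versus TAA mice. The storage and activation list, with latent TGF-beta carriers, fibrillins, integrins and proteases, had 12 of 22 tested genes as higher DEGs in the TAA group and none lower, with a median log2 fold change of 1.18. In the recovery group 12 of the 22 were lower than in the TAA group, with a median of -1.25. Plat, the tissue plasminogen activator, rose by 4.99 (SE 0.22, adjusted p = 5.6e-06, limma) and was still a DEG in recovery versus control mice at 1.31 (SE 0.23, adjusted p = 0.0439, limma). Fbn2, a microfibril protein, was at 0 to 0.00784 scaled FPKM in the control group and 1.94 to 3.84 in TAA mice. Mmp2, a gelatinase, rose by 3.83, and Itgb6, a subunit of an integrin that releases TGF-beta from its latent complex, by 3.19.

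The list of genes that TGF-beta is known to induce had 17 of 29 higher DEGs and 1 lower in the TAA group, with a median of 1.27, and 16 lower and 2 higher in recovery versus TAA mice, with a median of -1.15. Col1a1 rose by 5.91, Col3a1 by 4.95 and Col1a2 by 4.54 in TAA mice, and all 3 are also in the myofibroblast list. In the recovery group they fell by 4.92, 4.61 and 3.69 against the TAA group. Cdkn1a, which encodes the cell cycle inhibitor p21, rose by 4.96 in TAA mice and was the 1 DEG of this list in recovery versus control mice, at a log2 fold change of 3.81 (SE 0.28, adjusted p = 0.00776, limma). Its recovery mice measured 9.47, 16.8 and 20.3 scaled FPKM, against 0.870 to 1.04 in the control mice.

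Of the other feedback and extracellular inhibitors, 7 of 18 were higher DEGs and 1 was lower in the TAA group (median 0.68), and 6 were lower and none higher in recovery versus TAA mice (median -0.13). Without scaling 11 were higher and none lower in the TAA group, beside 4803 of all 14094 tested genes in either direction. With quantile normalization 2 were higher and 5 lower in recovery versus TAA mice, beside 2588 of all tested genes. Fstl1, a follistatin-like secreted protein, rose by 3.75, Bmper, a BMP-binding protein, by 2.48, Fstl3, which binds activin, by 2.46, and Htra1, a secreted protease, by 2.30. Nedd4l, a ubiquitin ligase of the pathway, was the 1 DEG of this list in recovery versus control mice, at 1.08 (SE 0.09, adjusted p = 0.0091, limma). Its recovery mice measured 17.6 to 20.1 scaled FPKM, above both the TAA mice (14.4 to 15.9) and the control mice (8.39 to 9.77).

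The signal transducers between receptor and nucleus did not pass the DEG test. None of the 14 tested Smads and co-regulators was a DEG in limma in any comparison, and 6, 3 and 4 of them had an unadjusted p below 0.05 in TAA against control, recovery against TAA and recovery against control. None of the 12 other superfamily receptors and co-receptors was a DEG in limma either, with 6, 3 and 3 at an unadjusted p below 0.05 in the same order. Over all tested genes these shares were 60%, 56.7% and 23%. Without scaling between libraries, 4 of the 14 and 2 of the 12 were higher DEGs in the TAA group, and as TPM 6 and 2 were. Of all 14094 tested genes, 4803 without scaling and 5806 as TPM were DEGs in either direction there. The median log2 fold change over all genes was then 0.63 and 0.81. For the 14 it was 0.76 and 0.95, and for the 12 it was 0.53 and 0.71. As TPM, 3 of the 14 and 2 of the 12 were lower DEGs in recovery versus TAA mice, beside 5159 of all genes in either direction. With quantile normalization 2 of the 12 were lower in the TAA group, beside 2932 of all genes in either direction.

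Among 16 other ligands of the superfamily, 3 were higher and 2 lower DEGs in the TAA group, near the shares over all genes. Without scaling 6 were higher and 1 lower, with upper quartile scaling 6 and 2, and with quantile normalization 3 and 4. Of all 14094 tested genes, 4803, 3649 and 2932 were DEGs in either direction under these settings. Gdf10, a BMP-like ligand, rose by 1.98 and Inha, the inhibin alpha subunit, by 1.81. Inhbc and Inhbe, the activin subunits made mainly by hepatocytes, fell by 2.18 and 1.34, and they rose by 2.12 and 1.43 in recovery versus TAA mice. Over the same groups the summed hepatocyte markers were 43764 to 48517 in control mice, 23261 to 30354 in TAA mice and 51291 to 54271 in recovery mice, and their part in this was not tested. Inhba, the activin A subunit, was the 1 DEG of this list in recovery versus control mice (log2 fold change 1.19, SE 0.19, adjusted p = 0.0367, limma).

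Of 7 genes induced by BMP, the related branch of the family, 4 were higher DEGs in the TAA group and none was lower (median 1.11). Id1 and Id3, inhibitors of differentiation, rose by 1.54 and 1.39, Hey1 by 1.29 and Hamp, the iron hormone hepcidin, by 1.11. Hamp measured 368 to 503 scaled FPKM in the control mice, 884 to 971 in the TAA mice and 626, 1071 and 738 in recovery mice 1 to 3. In recovery versus TAA mice 1 of the 7 was a higher and 2 were lower DEGs, with a median of -0.23. None of the 7 was a DEG in limma in recovery versus control mice, where 4 had an unadjusted p below 0.05, all of them higher. The median log2 fold change there was 0.80, beside 0.01 over all tested genes.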

How the data were processed

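Paired-end RNA-seq libraries were made by the authors from the livers of 9 mice. Their reads were aligned to mm10 by HISAT2 2.2.1 and assigned to genes by featureCounts 1.5.0-p3 (versions per the submitters' processing notes). The authors deposited FPKM values, which are per M mapped fragments and carry no further scaling from library to library. Results described as without scaling use these values. The small RNA libraries were not analysed here. The treatment in the labels set the groups. The labels number the mice but do not pair them, and p-values measure the spread between mice.

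Median-of-ratios factors, which divided each library's FPKM, came from the 14005 genes that no library lists at 0. Factors were 0.827 to 0.878 for control, 1.29 to 1.38 for TAA and 0.893 to 0.907 for recovery mice. The 14094 genes whose mean FPKM reached 0.1 entered limma 3.58.1 (R 4.3.3) as log2(scaled FPKM + 0.1). The functions lmFit and eBayes (trend on) were run on the 6 libraries of each comparison, with Benjamini-Hochberg adjustment over all tested genes. Depth was estimated from FPKM multiplied by the longest transcript in GENCODE M21, where 52.6% to 60.3% of low values per library were whole fragments within 0.08, against 16% by chance. Fragment numbers are therefore approximate, no count test was run, and no interval from counting is given. Ratios within a library were compared by two-sided exact permutation tests. The limma steps were tested on simulated data.

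The members and all gene lists were chosen with earlier results of these data known. From each pathway list, up to 4 DEGs with the largest fold change and no overlap between TAA and control mice are named, plus every list gene that was a DEG between recovery and control mice. For the 5 members with the widest range of group means, the 3 nearest genes of mean FPKM 1 or more are named. Alternatives to the pseudocount, filter, scaling, samples in the fit, moderation, test, block and set of mice were tried. Python 3.11.15 handled the tables through pandas 2.3.3 and numpy 2.4.6.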

Additional observations from a re-analysis of the deposited data

How the results depend on the processing

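Every alternative was run on each member and comparison. For the members, 486 of 513 refits kept the direction and the side of the threshold. Against FPKM as deposited, scaling lowered the 9 members by 0.54 to 0.63 on the log2 scale in TAA versus control mice and raised them by 0.51 to 0.56 in recovery versus TAA mice. Relative to the median of all genes, Tgfb1 in the TAA group stayed between 0.81 and 0.87 under all 5 scalings, and Bambi between 0.87 and 1.38. In TAA versus control mice, Tgfb1 and Smad7 became DEGs without scaling (1.46 and 1.42) and as TPM (1.64 and 1.60). Tgfbr1 became one as TPM (1.06) and Tgfb1 with upper quartile scaling (1.02). With a pseudocount of 1, Tgfbr2 (0.98) and Bambi (0.80) were under the 2-fold limit, as was Bambi with quantile normalization (0.83). In recovery versus TAA mice, 2 members were DEGs with a pseudocount of 1, 8 as TPM and 2 by treat against a 2-fold change. In recovery versus control mice, 1 was a DEG with a pseudocount of 0.01, beside 132 of all tested genes. The small difference of Tgfbr1 there (-0.05) turned to 0.026 without scaling and 0.013 as TPM, and ranged from -0.085 to 0.0040 when 1 mouse was left out. The causes were not tested.

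Over all genes, DEGs in TAA versus control mice (3520) numbered 1780 with a pseudocount of 1, 2204 at a mean FPKM of at least 1, 5806 as TPM and 1441 by treat. For recovery versus TAA mice (3017) these were 1460, 1895, 5159 and 1084. For recovery versus control mice (140) there were 80 with a pseudocount of 1, 48 without a filter, 235 with all 9 libraries in 1 fit, 85 without the trend and 0 by treat, where limma without treat gave 3242 genes with an unadjusted p below 0.05. Leaving out 1 mouse gave 32 to 106. Members called ranged from 5 to 6, 5 to 5 and 0 to 0 in the 3 comparisons when 1 mouse was left out. Over all tested genes, 3412 to 3579 were then called in TAA versus control mice and 2910 to 3135 in recovery versus TAA mice.

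With replicate number as a block, 17 genes were DEGs in recovery versus control mice, and the members called remained 6, 5 and 0 in number. Deviations of same-numbered mice correlated by -0.07 to 0.17 over genes, above 0.1 in 1 of 9 pairs. Those of mice with different numbers correlated by -0.18 to 0.17. With so few mice these values cannot settle whether the numbers mark pairs. The log2 ratio of Smad7 to Tgfb1 differed by -0.05 between TAA and control mice, and by -0.18 to 0.10 when 1 mouse was left out. The other ratio differences kept their direction with 1 mouse left out or 0.1 added to both FPKM, and none of those tests could reach the threshold. Leaving out mice for the part of the TAA change left was chosen after seeing the data. Depth limits Tgfb2, Tgfb3 and Ltbp2 most, at 20 to 50, 27 to 37 and 20 to 32 estimated fragments in control libraries.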
